A study of Mus musculus with 6 samples.

Results

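Vesicular neurotransmitter transporters load transmitter into synaptic vesicles and so mark which transmitter a neuron can release. The 7 genes of this group were taken by symbol, with no cut on a measured value but with earlier results of these data known. They were Slc32a1, the carrier of GABA and glycine (VGAT), and Slc17a6, Slc17a7 and Slc17a8, the carriers of glutamate (VGLUT2, VGLUT1 and VGLUT3). With them were Slc18a1 and Slc18a2, the carriers of monoamines (VMAT1 and VMAT2), and Slc18a3, the carrier of acetylcholine (VAChT). All 7 of them stood in the deposited table of 21286 genes, and 5 had enough reads to be tested. RNA came from the lateral ganglionic eminence (LGE), the embryonic source of striatal projection neurons and of many olfactory bulb interneurons, at embryonic day 16.5. The groups were 3 libraries of wild type littermates and 3 libraries of Dlx1/2 -/- mutants, which lack the homeobox transcription factors Dlx1 and Dlx2. Both groups shared a mixed background of C57BL/6J, 129S6 and CD1, and the labels name no treatment. They do not tell whether the 3 libraries of a genotype are different embryos, and all p-values rest on the spread among libraries, which may be technical.

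These carriers are powered by the protons that the vacuolar ATPase pumps into the vesicle. Neurons of the LGE are GABAergic, and GABA reaches their vesicles through Slc32a1 after it is made by Gad1 and Gad2. Slc17a6 is used by many glutamatergic neurons of the diencephalon and brainstem and early in the cortex, while Slc17a7 takes over in the mature cortex. Slc18a2 serves dopamine, noradrenaline, serotonin and histamine neurons, Slc18a1 mainly endocrine cells outside the brain, and Slc18a3 cholinergic neurons such as those of the basal forebrain and striatum.

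Library totals ran from 10711630 to 16588359 counts. Levels of 1 gene across libraries are given in CPM, its counts relative to all counts of the library after TMM scaling, and levels of different genes are compared in the authors' FPKM, which is per length. That length, 1 per gene, was in the median 1.25 times the union of exons. A ratio between genes within a genotype depends on it, and the change of a log2 ratio between genotypes does not. Dlx1 fell from a mean of 857.9 to 122.1 CPM and Dlx2 from 436.3 to 16.8 CPM in the mutant libraries, in the direction of their labels. All 10 LGE and subpallial marker genes looked up were present, with summed levels of 2379 to 2967 CPM in wild type and 1499 to 2186 CPM in the mutant. Nkx2-1, a factor of the neighbouring medial eminence and of the hypothalamus, was at 37.7 to 113.8 CPM in wild type and 43.9 to 106.4 CPM in the mutant.

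The regions upstream of the start sites are shown for the 3 transporters with the most reads, on which most of the results turn. Dlx proteins are homeodomain factors, which bind AT-rich sites built around TAATTA, a palindrome that reads the same on both strands. Each line gives the 250 bases before a RefSeq start site on GRCm38.p6, 5′ to 3′ on the strand of the gene, and capitals mark TAATTA, which was chosen after the sequences had been seen.
Slc32a1, chr2:158610508-158610757, plus strand: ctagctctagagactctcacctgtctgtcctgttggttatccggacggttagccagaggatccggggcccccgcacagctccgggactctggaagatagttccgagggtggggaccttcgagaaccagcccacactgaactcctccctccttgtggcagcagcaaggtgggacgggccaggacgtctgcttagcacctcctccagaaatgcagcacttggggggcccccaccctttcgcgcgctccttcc
Slc18a2, chr19:59260628-59260877, plus strand: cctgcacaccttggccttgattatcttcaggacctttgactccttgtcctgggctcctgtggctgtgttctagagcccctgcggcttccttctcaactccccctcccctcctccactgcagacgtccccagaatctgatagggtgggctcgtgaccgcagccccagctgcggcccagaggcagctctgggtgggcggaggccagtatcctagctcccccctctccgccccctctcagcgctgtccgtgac
Slc17a6 first start, chr7:51621580-51621829, plus strand: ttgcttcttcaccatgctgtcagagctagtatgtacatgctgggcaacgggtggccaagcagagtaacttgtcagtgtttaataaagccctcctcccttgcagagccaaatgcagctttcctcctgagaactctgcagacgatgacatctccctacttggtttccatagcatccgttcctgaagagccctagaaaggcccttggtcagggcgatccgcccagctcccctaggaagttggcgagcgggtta
Slc17a6 second start, chr7:51624387-51624636, plus strand: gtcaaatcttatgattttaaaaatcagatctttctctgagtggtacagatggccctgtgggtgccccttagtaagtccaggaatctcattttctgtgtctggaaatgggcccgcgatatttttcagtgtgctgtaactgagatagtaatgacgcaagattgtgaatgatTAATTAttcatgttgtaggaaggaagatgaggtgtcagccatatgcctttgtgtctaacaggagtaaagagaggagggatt
The upstream windows of Slc32a1 and Slc18a2 were GC-rich, at 62.4% and 64%, against a median of 52.4% over 32851 RefSeq windows of the same length. Those of Slc17a6 were at 53.2% and 41.2%. TAATTA occurred in 4.84% of all windows, in none of the windows of Slc32a1 and Slc18a2, and in 1 of the 2 of Slc17a6, at position −81 from the second start. That second window lies inside the gene and overlaps no exon of it in GENCODE M21. Of the 7 members 6 had a RefSeq window, and Slc17a8 also held TAATTA once, before 1 of its 2 starts. These letters describe short windows only, and binding was not measured.

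Of the 5 tested transporters, 3 were lower in the mutant (Slc32a1, Slc18a2 and Slc18a3), 1 was higher (Slc17a6), and Slc17a8 was not called by edgeR's quasi-likelihood test at an adjusted p of 0.05. Over all 15326 genes tested, 12.8% were lower, 11.2% higher and 24.0% called in either direction, and the groups of 41.9% did not overlap. The median log2 fold change of the 5 was −3.02 and that of all genes 0.00280. The 5 hold Slc18a3, which passed the filter by its wild type reads, and leave out both Slc17a7 and Slc18a1. All members were chosen with earlier results of these data known. In the authors' deposited table, the p-value was 7.38e-196 for Slc32a1, 1.18e-100 for Slc18a2, 6.74e-08 for Slc18a3 and 3.35e-08 for Slc17a6, and 0.942 for Slc17a8.

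**Figure D1:**
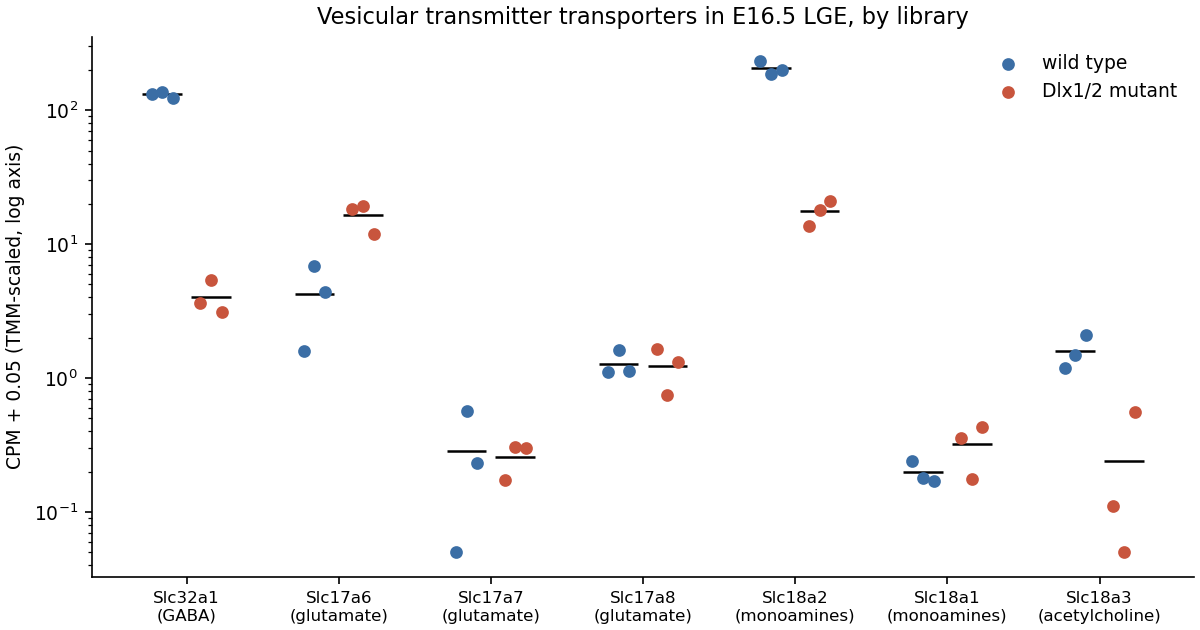
Points give the level of each of the 7 transporters in each library as CPM + 0.05 on a log axis, with a bar at the mean of the 3 libraries of a genotype and the cargo under each gene. Slc32a1, Slc18a2 and Slc18a3 are lower in the mutant without overlap, Slc17a6 is higher without overlap, and Slc17a7, Slc17a8 and Slc18a1 overlap between the genotypes.

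The GABA carrier had the lowest log2 fold change of the tested transporters. Slc32a1 (ENSMUSG00000037771, GRCm38 chromosome 2, 158610767 to 158615748, plus strand, 2 exons) was at 132.4, 137.2 and 123.9 CPM in wild type replicates 1 to 3 and at 3.60, 5.31 and 3.08 CPM in mutant replicates 1 to 3. Every mutant library was far below every wild type library. The means were 131.2 ± 6.74 and 3.998 ± 1.17 CPM (SD, n = 3 each), a log2 fold change of −5.03 ± 0.24 (SE; edgeR quasi-likelihood test with Benjamini-Hochberg adjustment over all genes, adjusted p = 1.02e-06). Among 15326 genes tested, this was the 23rd deepest log2 fold change below 0. The mutant libraries still held 59, 84 and 49 reads of it. Of the 10 LGE and subpallial markers 5 fell, among them Meis2 and Ebf1, and 2 rose, Gsx2 among them; their part in the level of Slc32a1 was not tested. In bulk tissue, fewer cells that make a transcript and less of it per cell cannot be told apart, here and in all results that follow.

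A noncoding transcript on the other strand, Gm14205, overlaps 697 exonic bases of Slc32a1. It had 9, 19 and 22 reads in the wild type libraries and 0 in each mutant library. The use of strand in counting is not known, so reads of the overlap cannot be told apart, and Gm14205 held few reads beside the 1384 to 2112 of Slc32a1.

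Slc32a1 was also set against the enzymes that make its cargo. Within each library the FPKM of Slc32a1 was 1.22 to 1.38 times that of Gad1 in wild type and 0.0757 to 0.130 times in the mutant. The wild type ratio above 1 depends on the lengths behind the FPKM. By CPM, not per length, the wild type mean was 131.2 for Slc32a1 and 369.0 for Gad1. The mean log2 ratio to Gad1 differed by −3.79 between mutant and wild type and that to Gad2 by −3.64. The 3 wild type and 3 mutant ratios overlapped in neither case, and an exact two-sided permutation test gave p = 0.1 for each, the smallest value that 3 against 3 libraries allow. Both ratios were among 7 compared (Benjamini-Hochberg adjusted p = 0.1 for each), and all but that of Slc32a1 to Slc17a6 were chosen after their values had been seen.

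The carrier of monoamines, Slc18a2 (ENSMUSG00000025094, chromosome 19, 59260896 to 59296012, plus strand, 11 exons in its longest transcript), had the highest mean level of the 7 transporters per length. It was at 232.0, 186.7 and 200.2 CPM in wild type replicates 1 to 3 and at 13.7, 17.97 and 20.8 CPM in mutant replicates 1 to 3. The groups stood clearly apart, the highest mutant library at 20.8 CPM and the lowest wild type library at 186.7 CPM. The mean fell from 206.3 ± 23.3 to 17.5 ± 3.58 CPM (SD, n = 3 each), an 11.8-fold lower level and a log2 fold change of −3.56 ± 0.20 (SE; edgeR adjusted p = 3.29e-06), the 59th deepest of all genes tested. The log2 fold change was less deep than that of Slc32a1. Per length, Slc18a2 was at most 1.29 times Slc32a1 within wild type libraries and 2.49 to 4.97 times within mutant libraries, again without overlap (exact permutation p = 0.1, adjusted p = 0.1 over the 7 ratios).

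Transcripts of monoamine synthesis were rare beside it. Ddc, the decarboxylase that dopamine and serotonin synthesis share, was at 0.476 ± 0.067 FPKM in wild type and 0.336 ± 0.029 FPKM in the mutant (SD, n = 3 each), against 53.7 ± 5.36 and 4.63 ± 0.919 FPKM for Slc18a2. Th, the first enzyme of dopamine synthesis, was at 0.920 ± 0.289 FPKM in wild type. Hdc, the enzyme of histamine synthesis, was at 3.92 ± 0.839 CPM in wild type and 3.68 ± 0.715 CPM in the mutant (SD, n = 3 each). It was not called (edgeR adjusted p = 0.807). Within each wild type library Slc18a2 was 103.8 to 122.6 times as high as Ddc per length, and in the mutant 11.3 to 17.3 times (exact permutation p = 0.1, adjusted p = 0.1 over the 7 ratios). Tph1 and Tph2, the first enzymes of serotonin synthesis, and the plasma membrane transporters Slc6a3 and Slc6a4 had too few reads to be tested, all at or below 0.360 CPM in the mean of either group. The transcription factors Pitx3 and Fev, which mark dopamine and serotonin neurons, were not among the genes of the table. The 4 other monoaminergic markers looked up summed to 0 to 0.455 CPM in wild type and 2.66 to 3.14 CPM in the mutant. En1 among them had 0 reads in wild type, which over 42724156 reads allows up to 0.0702 CPM by counting error, and Lmx1b was at 0.0201 CPM in the mean of wild type, with reads in 1 library, and at 1.71 CPM in the mutant. Lmx1b passed the filter through the mutant libraries alone, so at its wild type level it could be tested only if higher in the mutant. Platelets and mast cells also use Slc18a2. Their 5 markers found summed to 2.17 to 3.64 CPM in wild type and 3.48 to 4.88 CPM in the mutant, and the single one tested, Itga2b, was not called (edgeR adjusted p = 0.237). Tpsb2 and Mcpt4 of that list were not among the genes of the table. The part of these cells in the level of Slc18a2 was not tested.

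The antisense transcript Gm29261 overlaps 111 exonic bases at the start of Slc18a2 and had at most 2 reads in any library. Slc18a1 (ENSMUSG00000036330, chromosome 8, 69037711 to 69089235, minus strand), the other carrier of monoamines, was too rare to test. It had 2 reads in each wild type library and 5, 2 and 6 in the mutant libraries. The pooled 13 mutant against 6 wild type reads gave a ratio of 1.94 per total count with a 95% Clopper-Pearson interval of 0.687 to 6.22, which covers counting error only. A difference between genotypes was not detectable at this depth.

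The vesicular carrier with a higher level in the mutant was a glutamate carrier. Slc17a6 (ENSMUSG00000030500, chromosome 7, 51622006 to 51671119, plus strand, 12 exons in its longest transcript) was at 1.53, 6.76 and 4.35 CPM in wild type replicates 1 to 3 and at 18.1, 19.1 and 11.8 CPM in mutant replicates 1 to 3. The groups did not overlap, though the wild type libraries differed widely among themselves. The mean rose from 4.21 ± 2.62 to 16.3 ± 3.98 CPM (SD, n = 3 each), a log2 fold change of 1.90 ± 0.66 (SE; edgeR adjusted p = 0.00960), the 146th highest of all genes tested. Leaving out wild type replicate 1, the library with 16 reads of it, gave 1.56 with adjusted p = 0.00723, and over all alternatives the adjusted p was 0.00702 to 0.0373.

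Markers of glutamatergic neuron classes were read beside Slc17a6. The 10 markers of pallial neurons looked up, those of the cortex, summed to 36.2, 89.1 and 57.2 CPM in wild type replicates 1 to 3 and to 250.4, 195.5 and 161.1 CPM in the mutant. The order of the libraries in this sum was that of Slc17a6 in wild type but not in the mutant, where Slc17a6 was highest in replicate 2 and the sum in replicate 1. Of the 9 tested, 5 rose and 4 did not pass the test. Neurod2, a helix-loop-helix factor of cortical excitatory neurons, was at 5.36, 17.02 and 10.98 CPM in wild type and at 73.2, 53.0 and 49.7 CPM in the mutant (log2 fold change 2.37, edgeR adjusted p = 0.00165). Tbr1, a defining factor of early cortical neurons, was at 5.74, 19.9 and 12.2 CPM in wild type and at 9.75, 6.77 and 4.21 CPM in the mutant, with overlapping groups (log2 fold change −0.89, adjusted p = 0.182). Eomes and Neurog2, factors of cortical progenitors, also had negative log2 fold changes that did not pass, −1.005 (edgeR adjusted p = 0.206) and −1.23 (edgeR adjusted p = 0.0515, groups apart). Emx1, which marks cortical progenitors, was at or below 0.553 CPM in the mean of either group and was not tested. The 14 markers of hypothalamic and diencephalic cells summed to 44.5, 82.3 and 123.7 CPM in wild type replicates 1 to 3. In the mutant they summed to 504.1 to 589.9 CPM. Nkx2-1, also a factor of the medial eminence, made up most of the wild type sum at 37.7, 73.8 and 113.8 CPM. The order of the wild type sum, which Slc17a6 did not share, was thus that of Nkx2-1. An order of 3 libraries, shared or not, can arise by chance and was not tested. Of 8 tested, 7 were called higher. But 5 of these (Otp, Lhx1, Lhx5, Lhx9 and Nhlh2) passed the filter through the mutant libraries alone, which favours a higher level there. The eighth, Nkx2-1, did not pass the test (log2 fold change −0.10). Otp, a factor of hypothalamic neurons, made up most of the mutant sum at 419.5, 436.6 and 481.3 CPM, against 0.383, 0.325 and 0.966 CPM in wild type, while Foxb1 had 0 reads in wild type and a mean of 0.0422 CPM in the mutant. The part of these cells in the level of Slc17a6 was not tested.

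**Figure D2:**
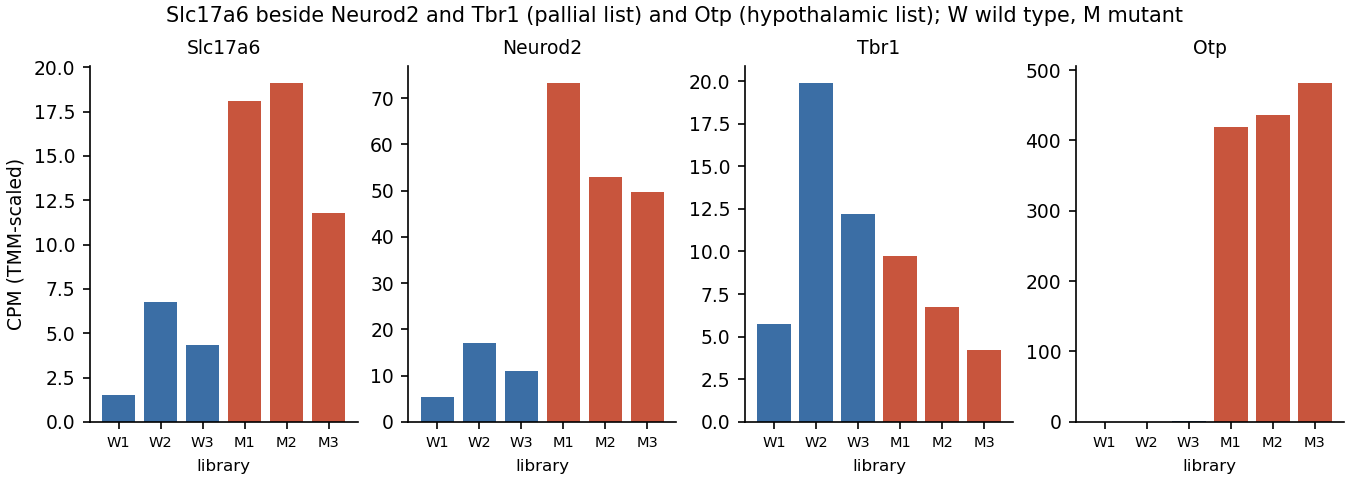
Bars give the level in CPM (each vertical axis from 0, with its own scale) of Slc17a6, of Neurod2 and Tbr1 from the pallial list and of Otp from the hypothalamic list in each of the 6 libraries. Slc17a6 lies at 1.53 to 6.76 CPM in wild type (W) and 11.8 to 19.1 CPM in the mutant (M); Tbr1 overlaps between the groups, whereas Neurod2 and Otp do not.

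The other glutamate carriers stayed rare in both genotypes. Slc17a8 (ENSMUSG00000019935, chromosome 10, 89574020 to 89621253, minus strand) was at 1.05, 1.56 and 1.09 CPM in wild type and at 1.58, 0.696 and 1.26 CPM in the mutant, with overlapping groups. Its log2 fold change was −0.07 ± 0.38 (SE; edgeR adjusted p = 0.907). Slc17a7 (ENSMUSG00000070570, chromosome 7, 45163949 to 45176142, plus strand) was too rare to test, with 0, 8 and 3 reads in the wild type libraries and 2, 4 and 4 in the mutant libraries. The ratio of the pooled reads, mutant to wild type, was 0.813 with a 95% Clopper-Pearson interval of 0.310 to 2.11 (counting error only). A difference between genotypes was not detectable at this depth.

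The acetylcholine carrier was rare in wild type and lower still in the mutant. Slc18a3 (ENSMUSG00000100241, chromosome 14, 32462438 to 32464850, minus strand, 1 exon) had 12, 22 and 34 reads in the wild type libraries and 1, 0 and 8 in the mutant libraries, or 1.15 to 2.05 CPM against 0 to 0.503 CPM. Its groups did not overlap, and 8 of the 9 mutant reads came from replicate 3, which also held 7 of the 8 mutant reads of Th. The pooled reads gave a ratio of wild type to mutant of 8.45 per total count, with a 95% Clopper-Pearson interval of 4.197 to 19.3 (counting error only). The log2 fold change was −3.02 ± 1.21 (SE; edgeR adjusted p = 0.0170). The gene passed the filter on low counts through its wild type libraries alone. With no mutant library over the minimum, it could be tested only if it was higher in wild type. The call was lost without wild type replicate 3 (adjusted p = 0.0572) and without mutant replicate 1 (adjusted p = 0.0668), within a range of 0.00277 to 0.0668 over all alternatives. Without mutant replicate 3 the log2 fold change was −5.33. Then 1 mutant read stood against 68 wild type reads, and the same ratio was 50.7 (95% interval 8.80 to 2032).

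Slc18a3 lies inside Chat, the gene of the enzyme that makes acetylcholine (chromosome 14, 32408203 to 32465989, the same strand), and shares no exonic base with it in GENCODE M21. Chat had 5, 10 and 20 reads in wild type and 6, 5 and 6 in the mutant and was not tested. In CPM the wild type libraries stood in the same order for Chat (0.478, 0.650 and 1.21) as for Slc18a3. Library totals and Nkx2-1 (37.7, 73.8 and 113.8 CPM in wild type replicates 1 to 3) ran in that order too. Lhx8, a LIM homeobox factor of cholinergic neurons, fell from 10.6 ± 4.95 to 1.497 ± 0.134 CPM (SD, n = 3 each; edgeR adjusted p = 8.65e-04). It followed the same order, at 6.60, 8.97 and 16.1 CPM in wild type replicates 1 to 3. Shared orders of 3 libraries can arise by chance and were not tested. Of the 5 cholinergic markers 4 fell, of which 1 passed the filter through wild type alone, and their summed level, most of it Isl1, which striatal neurons also use, was 229.1 to 279.3 CPM in wild type and 156.5 to 174.7 CPM in the mutant. The part of fewer cholinergic cells in the level of Slc18a3 was not tested.

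The order of the transporters per length differed between the genotypes. In wild type it ran from Slc18a2 (53.7 FPKM) and Slc32a1 (46.5 FPKM) to Slc17a6 (0.971 FPKM), Slc18a3 (0.635 FPKM), Slc17a8 (0.228 FPKM), Slc17a7 (0.0793 FPKM) and Slc18a1 (0.0220 FPKM). In this order the libraries of Slc17a6 and Slc18a3 overlapped, as did those of Slc17a7 and Slc18a1. In the mutant, Slc18a2 (4.63 FPKM) and Slc17a6 (3.81 FPKM) came first, with overlapping libraries, then Slc32a1 (1.44 FPKM), which lay below Slc17a6 in every mutant library. The other 4 followed at 0.221 FPKM or less, each overlapping its neighbour.

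The GABA carrier exceeded Slc17a6 in each wild type library and lay below it in each mutant library. Slc32a1 was 133.6, 31.4 and 44.0 times Slc17a6 per length in wild type replicates 1 to 3 and 0.307, 0.429 and 0.405 times in mutant replicates 1 to 3. The mean log2 ratio went from 5.83 ± 1.09 to −1.41 ± 0.26 (SD, n = 3 each), lower in 3 of 3 mutant libraries than in any wild type library (exact two-sided permutation p = 0.1, the smallest possible, and adjusted p = 0.1 over the 7 ratios). As parts of the summed FPKM of the 7 transporters, Slc32a1 made up 45.6 ± 2.80% in wild type and 13.8 ± 2.86% in the mutant, and Slc17a6 0.964 ± 0.616% and 36.97 ± 8.53%. Slc18a2 made up 52.5 ± 3.57% and 45.1 ± 9.13%, with overlapping groups, a difference of −7.45 percentage points that became −15.5 by CPM and −3.90 or −12.6 without mutant replicate 1 or 3. The sum itself was 9.92-fold lower in the mutant, 102.1 ± 4.11 against 10.3 ± 0.951 FPKM, so a share in the mutant refers to a much smaller pool.

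**Figure D3:**
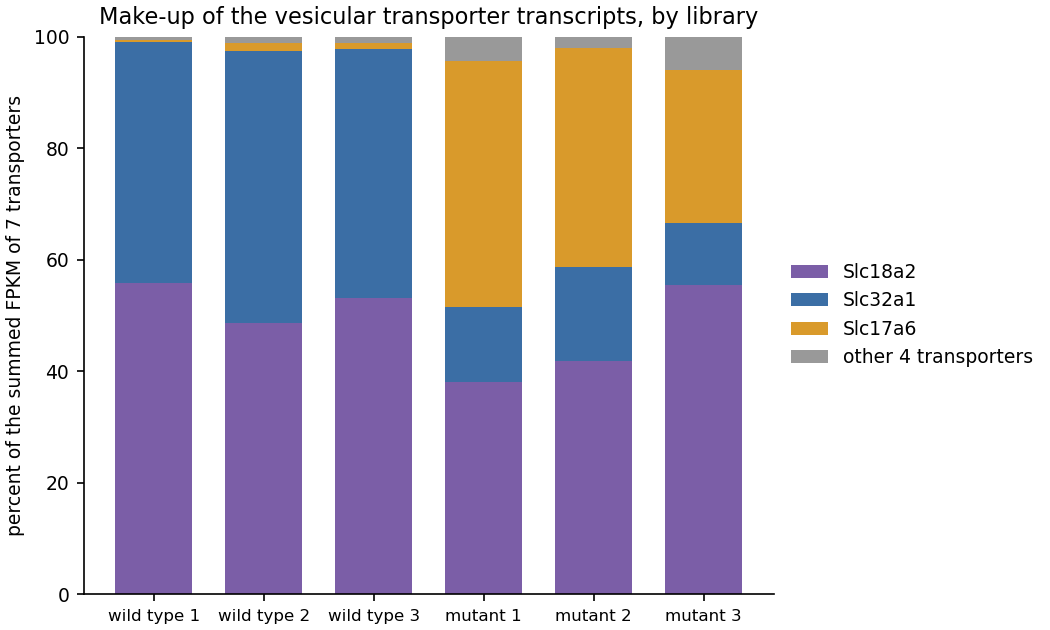
Stacked bars give the percent of the summed FPKM of the 7 transporters that Slc18a2, Slc32a1, Slc17a6 and the other 4 together made up in each library. Slc17a6 takes 27.5 to 44.2% in the mutant libraries and 0.324 to 1.55% in the wild type libraries, while the ranges of Slc18a2 overlap.

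Other genes of transmitter supply and storage, from lists by role, mostly changed by less. The counts of all these lists stand beside 12.8% lower and 11.2% higher over all genes tested. Among GABA and glycine genes 4 of 6 tested fell and 2 did not pass (median log2 fold change −0.37). Gad2 fell by 1.43 and Gad1 by 1.28 on the log2 scale, while Abat, which breaks GABA down, fell by 0.40. Among 11 genes of glutamate supply, 3 rose and 1 fell (median −0.06), but 1 rose with the replicate block and without replicate 2 of either genotype, and 2 fell without wild type replicate 3 or mutant replicate 2. Glul, the glutamine synthetase of glia, rose from 147.2 ± 18.5 to 232.4 ± 2.84 CPM, Slc38a3, a glutamine transporter, by 0.32 on the log2 scale and Slc1a2, a glial glutamate transporter, by 0.68, the last with overlapping groups. Slc1a1, a neuronal glutamate transporter, fell by 0.86.

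Among monoamine genes 1 of 7 tested fell and 6 did not pass (median −0.13), and Dbh and Slc6a2 were not among the genes of the table. That one was Th, from 3.33 ± 1.01 to 0.167 ± 0.239 CPM (SD, n = 3 each), and like Slc18a3 it passed the filter through the wild type libraries alone. Ddc (edgeR adjusted p = 0.112) and Gch1, which makes the cofactor of Th (edgeR adjusted p = 0.618), did not pass. Of the 3 tested acetylcholine genes, 0 were called by edgeR or by DESeq2, and 1, Ache, had an unadjusted edgeR p below 0.05. Without wild type replicate 1, 2 were called lower. Ache, the degrading enzyme, was at 6.59 ± 0.663 and 4.59 ± 0.766 CPM (edgeR adjusted p = 0.0573), and Slc5a7, the choline transporter, at 1.59 ± 1.11 and 0.750 ± 0.177 CPM (adjusted p = 0.144). Bche, a related esterase, was at 1.82 ± 0.331 and 2.74 ± 0.850 CPM (adjusted p = 0.165).

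Of 18 tested subunit and accessory genes of the proton pump that powers the carriers, 2 were higher, 1 lower and 15 not past the threshold. Their called share was 16.7%, beside 24.0% of all genes tested, and their median log2 fold change was 0.000144. Atp6v0a2 rose by a log2 fold change of 0.50 and Atp6v0e by 0.36, Atp6v1d fell by 0.25 (edgeR adjusted p = 0.0473), and Atp6v0a1 was at 134.7 ± 8.41 and 119.9 ± 3.15 CPM (edgeR adjusted p = 0.0777). The call of Atp6v1d was lost in 7 of 11 alternatives, among them the replicate block and the omission of wild type replicate 1 or 3 or of mutant replicate 2 or 3. Other carriers of vesicles and lysosomes went both ways, with 2 of 8 tested higher and 2 lower (median 0.30). Sv2c, a vesicle glycoprotein, rose from 10.8 ± 2.83 to 29.2 ± 4.80 CPM, and Slc17a5, a lysosomal sialic acid carrier of the family of the glutamate carriers, from 17.7 ± 1.05 to 25.3 ± 0.619 CPM. Slc10a4, an orphan carrier found on cholinergic and monoaminergic vesicles, fell from 9.07 ± 2.85 to 3.52 ± 0.467 CPM, and Sv2a by 0.28 on the log2 scale. General vesicle and release proteins had 5 of 11 lower and 1 higher (median −0.22): the calcium sensor relative Syt4 fell by 1.63, Syn2, a synapsin, by 0.70 and the vesicle membrane protein Syp by 0.57 on the log2 scale, and Vamp1, a vesicle SNARE, rose by 0.70.

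**Figure D4:**
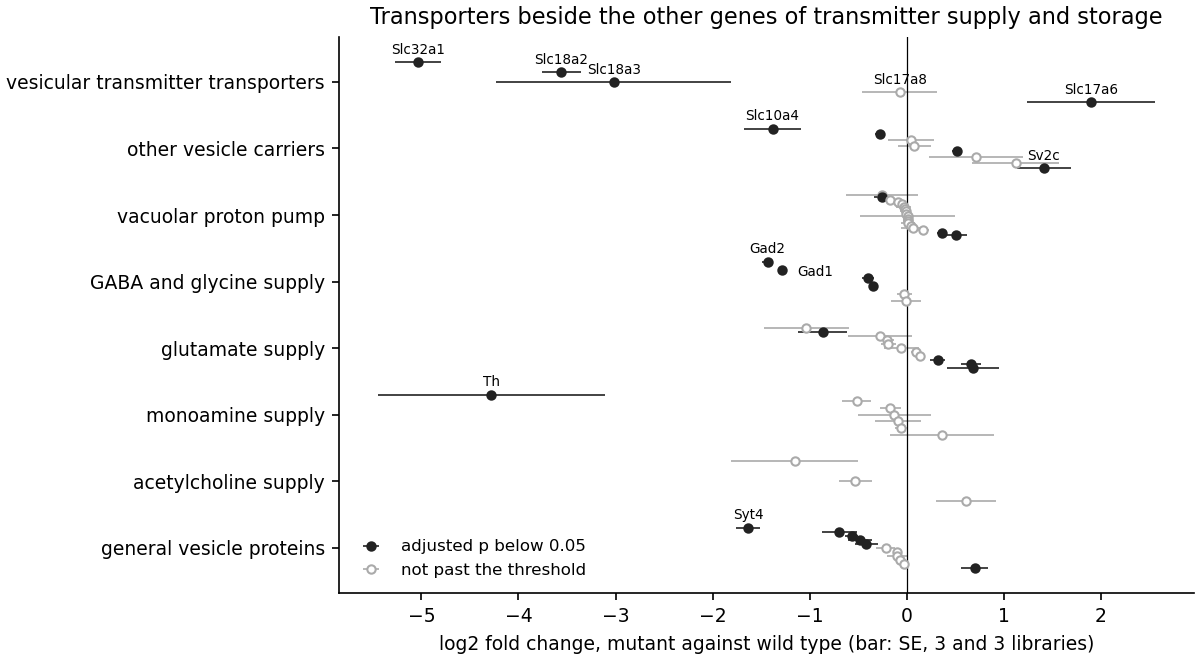
Points give the log2 fold change, mutant against wild type, of every tested gene in 8 lists by role, with a bar of 1 SE over 3 and 3 libraries, filled where the adjusted p is below 0.05. Slc32a1 (−5.03), Slc18a2 (−3.56) and Slc18a3 (−3.02) lie further left than every gene of the other lists save Th, and most proton pump genes lie near 0.

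Each tested transporter was set beside the genes whose profile was most like its own. Likeness was the root mean square difference of mean-centred log2 CPM over the 6 libraries, with a prior count of 2. It was taken among about 11150 tested genes with at least 5 CPM in the higher group, leaving out clone and predicted-gene names. The pattern of Slc32a1 was closest to that of Rxrg, a retinoid X receptor (0.143), then to Brs3, a bombesin-like receptor (0.229), and Dlx5, a homeobox factor of the Dlx family (0.274). That of Slc18a2 was closest to Fgf3, a growth factor, at 0.0768, followed by the potassium channel gene Kcnh1 at 0.211 and Slc35d3 at 0.214. Slc17a6 was closest to Chodl (0.281), then to Neurod6 (0.303) and Neurod2 (0.307), helix-loop-helix factors of cortical excitatory neurons. Slc18a3, with its few reads, had no neighbour nearer than Foxp1, a striatal transcription factor (0.506), followed by Cpne8 (0.542) and Stk32c (0.572). Slc17a8 was nearest to Pcdh7 (0.168), H2-M5 (0.174) and Stx3 (0.180), none of them past the threshold. With 6 libraries in 2 genotypes, these values mostly reflect the size of the difference between genotypes, and no p is given. The prior count narrows that difference for genes with few reads. Brs3, at 0.0631 CPM in the mean of the mutant, had a log2 fold change of −6.47, against −5.03 for Slc32a1.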

How the data were processed

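RNA of 3 wild type and 3 Dlx1/2 mutant LGE samples was sequenced. HISAT2 2.0.4, StringTie 1.3.0, edgeR, GRCm38.p4 and mm10 appear in the submitters' processing notes without their roles. Which tool counted, with what annotation and strand setting, is not known here. The authors deposited raw counts per gene, FPKM and a p-value per gene, per the file headers. Neither the test behind that p-value nor any adjustment is stated. For all 11418 genes above 50 counts in each library, the counts divided by FPKM and library total gave 1 length per gene, within 0.0001. This length was 2797 bases for Slc32a1, the length of its transcript in GENCODE M21, and in the median 1.25 times the union of exons.

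Counts were tested in R 4.3.3 with edgeR 4.0.16: filterByExpr by group, which kept 15326 genes, TMM, and the quasi-likelihood F test, two-sided, Benjamini-Hochberg adjusted over all genes, threshold 0.05. The SE comes from log2 CPM with 0.5 added to each count. Of 7 ratios between genes, compared by exact permutation tests (scipy 1.17.1), 6 were added after the data were seen. The filter asked for 3 libraries with about 0.634 CPM. The script was tested on simulated counts. Alternatives were a replicate block, omission of each library in turn, RLE scaling, testing all genes, DESeq2 1.42.0 and an adjusted p below 0.01. For ratios a pseudocount of 0.1 FPKM and for shares CPM were tried. Named were all members, the 4 genes with the smallest adjusted p of each list of genes by role, and the 3 genes closest in pattern to each tested member; other genes named were chosen after their values were seen. Some listed genes, and 2 of the 7 ratios, are counted but not reported here. Members and lists were chosen with earlier results of these data known. TAATTA was chosen after the promoter sequences had been seen, and the cAMP response element, first noticed there, was dropped. The deposited columns are named in 1 way for wild type and in another for mutant libraries, and a batch along that line could not be separated from genotype. Replicates differed by more than counting noise (chi-square per degree of freedom 7.60 to 15.3).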

Additional observations from a re-analysis of the deposited data

How the results depend on the processing

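Slc32a1, Slc18a2 and Slc17a6 kept direction and call in all 11 alternatives, with log2 fold changes of −5.29 to −4.88, −3.70 to −3.41 and 1.56 to 2.38. Slc18a3 ranged from −5.33 to −2.46 when a library was left out and was not called at the 0.01 threshold (−3.02, adjusted p = 0.0170). Slc17a8, never called, ran from −0.34 to 0.19 over these omissions and changed sign without wild type replicate 2 (0.14) and without mutant replicate 2 (0.19). Without the filter and with DESeq2, Slc17a7 and Slc18a1 were tested and not called (adjusted p of 0.441 or more).

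Same-numbered wild type and mutant libraries deviated from their group means with correlations of −0.221, 0.0637 and −0.228. Those of libraries with other numbers ran from −0.169 to 0.322. With 3 libraries per genotype, these values cannot tell whether libraries were paired. With the replicate block Slc32a1 was at −5.05 and Slc17a6 at 1.96, 1 gene of glutamate supply rose instead of 3, 0 proton pump genes fell instead of 1 (Atp6v1d), and 1458 genes were lower and 1223 higher over the whole table. At an adjusted p below 0.01 the calls were 1116 lower and 875 higher over the whole table, against 1958 and 1715, with 2 general vesicle proteins lower, 0 proton pump genes lower and 1 higher, and 0 genes of glutamate supply lower and 1 higher. Without the filter 0 proton pump genes fell. Without the filter, and with DESeq2, 2 genes of glutamate supply fell. Leaving out 1 library, 0 to 1 proton pump genes fell (0 without wild type replicate 1 or 3 or mutant replicate 2 or 3), 1 to 2 genes of glutamate supply fell (2 without wild type replicate 3 or mutant replicate 2) and 1 to 3 rose (1 without replicate 2 of either genotype), and 0 to 2 acetylcholine genes fell (2 without wild type replicate 1). By CPM in place of FPKM the share of Slc32a1 differed by −28.1 percentage points between genotypes, against −31.7 per length, and that of Slc18a2 by −15.5, against −7.45 (−12.6 to −3.90 with 1 library left out). The causes were not tested. The rare carriers are limited by depth, since 3 reads correspond to 0.181 to 0.280 CPM in a library.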
